A study of Homo sapiens with 6 samples.

Results

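A set of 10 genes for the glutathione and thioredoxin systems and for targets of the transcription factor NRF2 was examined in SCC25 cells, an established line from an oral squamous cell carcinoma. The genes were taken by symbol from the 34694 gene symbols of the deposited signal table: GCLC, GCLM, GSR and GPX2 of the glutathione system, TXN, TXNRD1, PRDX1 and SRXN1 of the thioredoxin system, and the NRF2 targets NQO1 and OSGIN1. All 10 were present. Total RNA was measured with Illumina expression arrays after 72 h of growth, either with aspirin at 2.0 mM (a drug that inhibits the cyclooxygenases) or without it as the control. The aspirin group and the control group had 3 arrays each, which the labels number 1 to 3. Chip 1 carried replicates 1 and 3 of either group and chip 2 carried replicate 2. Nothing in the labels tells whether replicates came from separate cultures, and p-values here describe the spread among 6 arrays, part or all of which may be technical, and precision is limited by that number. Aspirin was the only agent named, and a single cell line was used. In a bulk RNA sample, a change in the share of cells that express a gene cannot be told apart from a change in RNA per cell.

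Glutathione is a small peptide that carries reducing power in its cysteine. Its synthesis is limited by glutamate-cysteine ligase, which consists of a catalytic subunit, GCLC, and a modifier subunit, GCLM. Glutathione peroxidases such as GPX2 spend it on peroxides, and glutathione reductase, GSR, restores it with NADPH. In the parallel system thioredoxin, TXN, reduces protein disulfides and recharges peroxiredoxins such as PRDX1, thioredoxin reductase, TXNRD1, recharges thioredoxin with NADPH, and sulfiredoxin, SRXN1, rescues peroxiredoxins that peroxide has over-oxidized. NRF2, encoded by NFE2L2, is held down by KEAP1, which feeds it to a ubiquitin ligase. When oxidants or electrophiles modify KEAP1, NRF2 accumulates and binds antioxidant response elements with small MAF proteins. All 10 genes are known as NRF2 targets.

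The core of the antioxidant response element, written TGACNNNGC, was searched on both strands of the RefSeq promoter windows (GRCh38.p14) that run from 250 bases before to 50 after a gene's start. Of the 10 genes, 8 matched an entry, with 9 windows in all because TXNRD1 has 2 starts; GSR and PRDX1 were not matched. The core was found in 4 of the 9 windows, those of GCLM, TXNRD1 and GPX2, and in 13.35% of all 35116 windows. No core match overlapped a match to the AP-1 site TGANTCA, which was found in 7.709% of all windows and, among the 9, in that of OSGIN1. The 4 windows are shown up to the first transcribed base because they hold the cores of 1 gene that rose with aspirin (TXNRD1), 1 that fell (GPX2) and 1 that did not pass the test (GCLM). They read in the direction of transcription, with the core in capitals.
GCLM, chr1:93909430-93909680, minus strand: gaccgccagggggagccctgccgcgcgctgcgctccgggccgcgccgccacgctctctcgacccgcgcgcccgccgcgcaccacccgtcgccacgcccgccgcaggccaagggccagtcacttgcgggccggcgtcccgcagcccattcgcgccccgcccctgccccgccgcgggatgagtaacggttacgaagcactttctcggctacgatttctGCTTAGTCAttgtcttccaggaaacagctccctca
TXNRD1, upstream start, chr12:104215529-104215779, plus strand: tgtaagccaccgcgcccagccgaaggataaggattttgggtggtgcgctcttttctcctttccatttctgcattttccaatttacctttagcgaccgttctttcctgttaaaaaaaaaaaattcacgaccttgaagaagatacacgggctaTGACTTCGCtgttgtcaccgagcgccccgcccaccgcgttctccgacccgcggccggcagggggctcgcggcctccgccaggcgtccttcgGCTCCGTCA
TXNRD1, downstream start, chr12:104286782-104287032, plus strand: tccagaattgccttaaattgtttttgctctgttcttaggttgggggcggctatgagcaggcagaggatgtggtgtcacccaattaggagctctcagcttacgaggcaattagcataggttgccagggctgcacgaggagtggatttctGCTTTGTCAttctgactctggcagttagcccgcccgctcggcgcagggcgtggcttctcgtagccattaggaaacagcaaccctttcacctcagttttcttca
GPX2, chr14:64942745-64942995, minus strand: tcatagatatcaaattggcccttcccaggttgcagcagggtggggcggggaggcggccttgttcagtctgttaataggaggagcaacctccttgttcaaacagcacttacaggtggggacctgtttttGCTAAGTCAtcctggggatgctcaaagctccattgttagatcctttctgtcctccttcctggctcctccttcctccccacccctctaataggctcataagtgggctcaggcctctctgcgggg
In GCLM the core lay on the other strand at positions -34 to -26 and reads TGACTAAGC there, and in GPX2 it lay on the other strand at -122 to -114 and reads TGACTTAGC. In TXNRD1 the upstream window held TGACTTCGC on the gene strand at -99 to -91 and TGACGGAGC on the other strand from -8 to 1, and the downstream window held TGACAAAGC on the other strand at -102 to -94. A match is a description of these letters and not a measured binding site. Sequence outside the windows was not searched, so a window without a match does not mean that a gene lacks the element.

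On these arrays the median signal lay between 101.9 and 127 intensity units and the mean background between 95.4 and 115.7, and 14691 to 15170 genes had a detection score above 0.95, the value read here as detected. Values below are log2 of the background-corrected, quantile-normalized signal, and a difference is aspirin minus control on that scale, ± its standard error (SE) from limma's linear model over 3 arrays per group. Each adjusted p comes from limma and was adjusted by Benjamini-Hochberg over the 15128 genes detected on 3 or more of the 6 arrays, and 0.05 was the threshold. All 8 epithelial and keratinocyte markers were above background on all 6 arrays. Of them KRT5 (-1.26), KRT14 (-1.26) and the desmosomal cadherin DSG3 (-1.45) fell, 0 rose and 5 did not pass. The summed signal of the 8, background-corrected and normalized but not in log2, was 37007 to 42828 units with aspirin and 50322 to 54283 in controls. Of 9 markers of other cell types, 3 were tested. The collagens COL1A1 (-1.23) and COL1A2 (-1.04) fell. CD68, the brightest of the 9, was above background on all 6 arrays and did not pass (-0.001, adjusted p = 0.998). PTPRC, CD3E and PDGFRB were above background on no array. The signal of the 9, corrected, normalized and summed in the same way, was 990.4 to 1403 units with aspirin and 1183 to 1517 in controls. Whether these shifts have a part in the results for the 10 genes was not tested.

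Of the 9 genes that could be tested, 3 rose with aspirin (GCLC, TXNRD1 and SRXN1), 1 fell (GPX2) and 5 did not pass. Over all genes tested 20.2% passed, 10.5% upward and 9.73% downward. The arrays of the groups did not overlap for 8 of the 9, against 38.8% of all genes tested. The genes were chosen with earlier results of these data known, so these shares are a description and not a test of the set. When replicate number was added as a block, 33.1% of all genes passed, 17.4% upward and 15.7% downward, and 3 of the 9 were called higher and 3 lower, GCLM and TXN having joined GPX2. OSGIN1 was above a score of 0.95 on only 2 arrays and was not tested. The 9 others were above 0.95 on all 6 arrays, so none of them entered the test through the group in which it was higher.

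**Figure D1:**
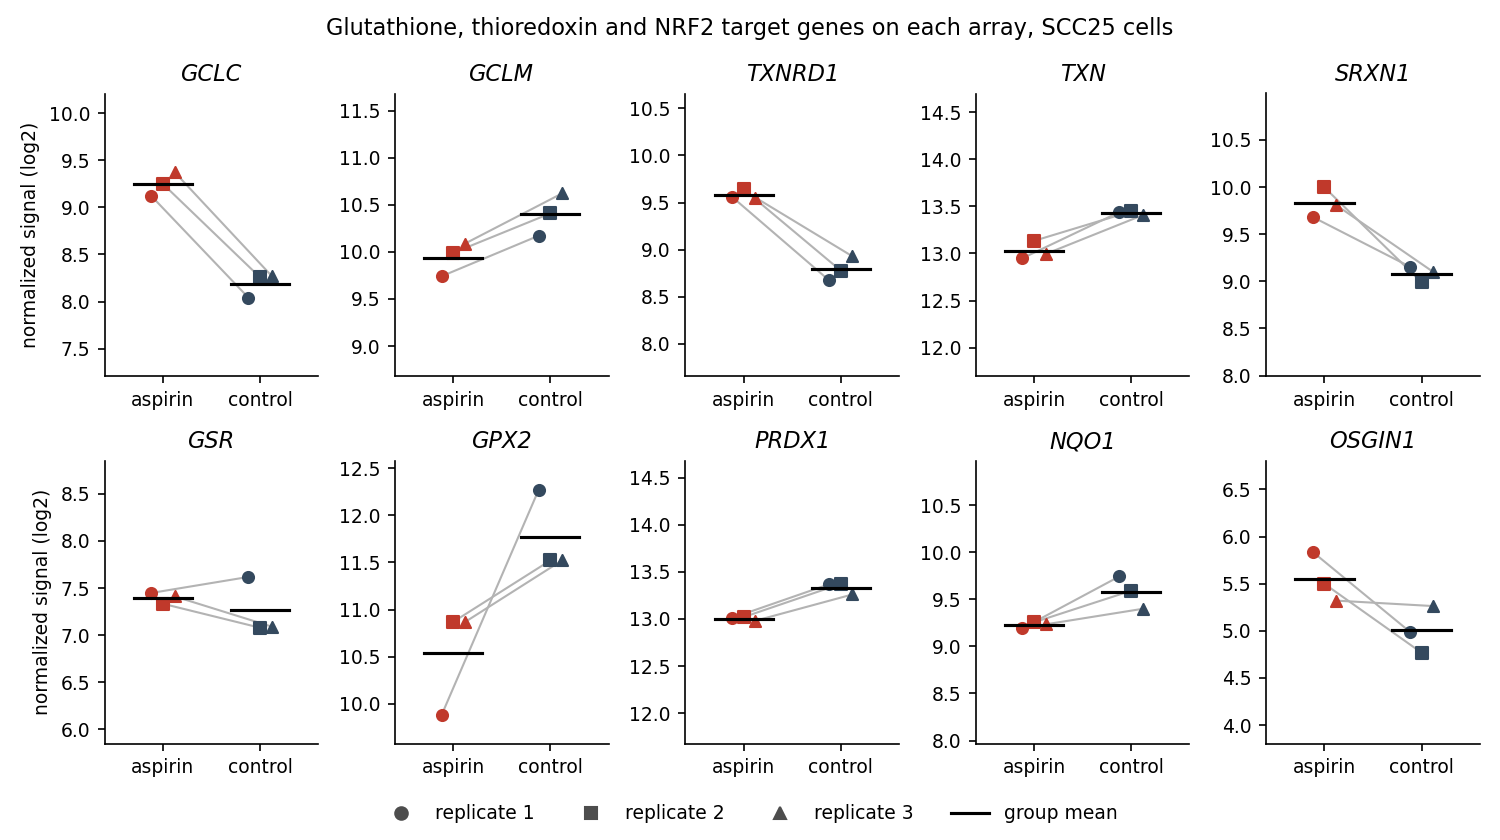
Normalized signal (log2) of each of the 10 genes on the 3 aspirin and the 3 control arrays, with replicates of the same number joined by a line and group means as bars. Every panel spans 3 log2 units. GCLC, TXNRD1 and SRXN1 lie higher on all aspirin arrays, GPX2 lies lower with a wide spread of replicate 1, and GSR is the gene whose groups overlap.

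Of the subunits of glutamate-cysteine ligase, GCLC rose and GCLM did not pass the test. GCLC, the catalytic subunit, had 9.12, 9.25 and 9.37 on aspirin arrays 1 to 3, against 8.04, 8.26 and 8.27 on control arrays 1 to 3. In deposited units the signal was 521.9, 802.9 and 681 with aspirin and 337.8, 471.1 and 392.6 in controls. Every aspirin array was higher than every control array, and the spread within groups was small beside the gap between them. GCLC rose by 1.06 ± 0.14 (adjusted p = 0.00194), 2.08-fold, the largest rise among the 10 genes. The rise was 1.08, 0.99 and 1.10 in replicate pairs 1 to 3.

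GCLM, the modifier subunit that lowers the enzyme's need for glutamate and its inhibition by glutathione, had 9.74, 9.99 and 10.09 on aspirin arrays, against 10.17, 10.41 and 10.62 on control arrays. The groups did not overlap, but aspirin replicate 3 and control replicate 1 lay close together. The difference was -0.46 ± 0.17 and did not pass (adjusted p = 0.0850, 95% confidence interval -0.84 to -0.08). It was -0.43, -0.42 and -0.53 in the 3 replicate pairs, and with the replicate number as a block GCLM was called lower (adjusted p = 0.0192). GCLM is 1 of the genes whose promoter window holds the element core, while no core was found in the window of GCLC.

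The change of GCLC exceeded that of GCLM by 1.52 log2 units within arrays, and the 3 aspirin arrays did not overlap the 3 control arrays in this within-array ratio (exact two-sided permutation test over arrays, p = 0.10, the smallest that 3 against 3 arrays allow). TXNRD1 against TXN (1.20) and SRXN1 against PRDX1 (1.08) gave the same result, p = 0.10 each by the exact permutation test and 0.10 after adjustment over the 3 pairs. The 3 pairs were chosen after their values were seen. In each pair, every aspirin array lay above every control array for the first gene and below for the second. The absence of overlap and the p-value therefore follow from the single genes, and the test adds no evidence to theirs.

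GPX2, a selenium-containing peroxidase of epithelia that reduces hydrogen peroxide and small lipid peroxides with glutathione, had 9.88, 10.87 and 10.87 on aspirin arrays, against 12.27, 11.52 and 11.52 on control arrays. The deposited signal was 818.4, 2221.8 and 1757.1 units with aspirin and 5350.6, 3655.7 and 2909 units in controls. The lowest aspirin value and the highest control value both came from replicate 1, while replicates 2 and 3 were nearly identical within each group. GPX2 fell by 1.23 ± 0.31 on the log2 scale (adjusted p = 0.0253), to 42.6% of the control level, the largest difference in either direction among the 10 genes. It was -2.39 in replicate pair 1, -0.65 in pair 2 and -0.65 in pair 3. Without both replicate 1 arrays GPX2 still passed at -0.65 (adjusted p = 0.0174), while without control replicate 1 alone it was -0.98 and the call was lost (adjusted p = 0.0533), as it was with the background taken from all listed genes (-1.44, adjusted p = 0.107). The call was also lost in the limma fit with no filter on detection (adjusted p = 0.0789).

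GSR, which regenerates glutathione from its disulfide, had 7.45, 7.33 and 7.41 on aspirin arrays, against 7.62, 7.08 and 7.09 on control arrays. Control replicate 1 lay above all aspirin arrays and the other control arrays lay below them, so the groups overlapped. The difference was 0.13 ± 0.17 (adjusted p = 0.637), with a 95% confidence interval from -0.26 to 0.53 that excludes a change as large as that of GCLC.

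In the thioredoxin system the reductase and sulfiredoxin rose. TXNRD1, the selenium-containing cytosolic thioredoxin reductase, had 9.56, 9.64 and 9.55 on aspirin arrays, against 8.67, 8.78 and 8.93 on control arrays. The aspirin arrays lay within 0.1 log2 unit of each other and well above all controls. TXNRD1 rose by 0.79 ± 0.13 (adjusted p = 0.00529), 1.73-fold, with 0.89, 0.86 and 0.62 in replicate pairs 1 to 3.

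SRXN1, which reduces over-oxidized peroxiredoxins, had 9.682, 9.997 and 9.810 on aspirin arrays, against 9.155, 8.990 and 9.100 on control arrays. Aspirin replicate 2, on the other chip, was the highest and its control the lowest, so the pairs differed in size, with 0.53, 1.01 and 0.71. SRXN1 rose by 0.75 ± 0.14 (adjusted p = 0.00809), 1.68-fold. On the chip that held replicates 1 and 3 alone, SRXN1 differed by 0.62 (adjusted p = 0.0926) and TXNRD1 by 0.76 (adjusted p = 0.0709), and neither passed with 2 arrays per group.

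Their substrates had differences in the opposite direction. TXN had 12.95, 13.13 and 12.99 on aspirin arrays, against 13.44, 13.45 and 13.41 on control arrays, and PRDX1, an abundant cytosolic peroxide scavenger, had 13.01, 13.02 and 12.98, against 13.37, 13.37 and 13.26. For both genes every aspirin array lay below every control array, by a narrow margin on a log2 scale. TXN differed by -0.40 ± 0.13 (adjusted p = 0.0559) and PRDX1 by -0.33 ± 0.12 (adjusted p = 0.0962), so neither passed, with 95% confidence intervals of -0.69 to -0.12 and -0.61 to -0.05. With the replicate number as a block TXN was called lower (adjusted p = 0.0322) and PRDX1 was not (adjusted p = 0.0595). Both are among the brightest genes of the table, at the 99.71 and 99.65 percentiles of signal.

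NQO1, a quinone reductase often used as a marker of NRF2 activity, had 9.19, 9.25 and 9.23 on aspirin arrays, against 9.74, 9.59 and 9.40 on control arrays. The aspirin arrays were tightly grouped below all controls, which spread more widely. The difference of -0.35 ± 0.14 missed the threshold (adjusted p = 0.114), also with the replicate block (adjusted p = 0.0694). Its 95% confidence interval of -0.67 to -0.03 lies below 0.

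OSGIN1, an oxidative stress-induced growth inhibitor, was dim. Its deposited signal was 127, 146.1 and 121.8 units with aspirin and 118.7, 129.5 and 122.1 units in controls, and its level was 5.84, 5.50 and 5.32 on aspirin arrays, against 4.99, 4.77 and 5.26 on control arrays. It was above background, by score or by a signal over the background mean plus 3 SD, on 3 of 3 aspirin arrays and 1 of 3 control arrays. In the fit with no filter on detection the difference was 0.54 ± 0.17 and did not pass (adjusted p = 0.131), and with a filter on signal the adjusted p was 0.0663. Replicate pair 3 differed by 0.06, against 0.85 and 0.73 in pairs 1 and 2.

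**Figure D2:**
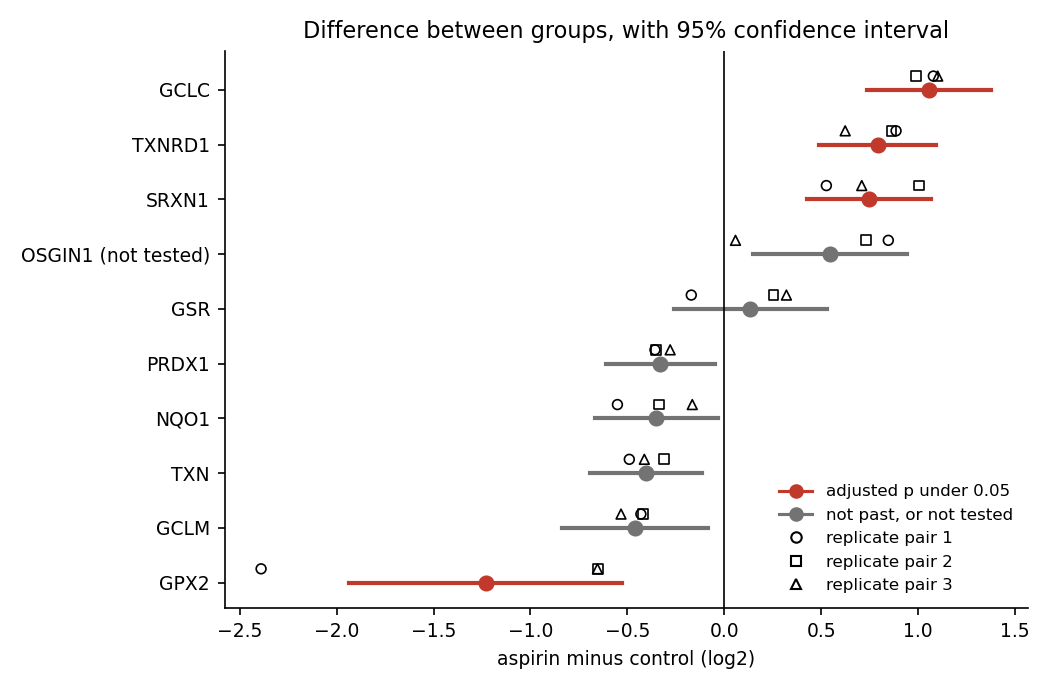
Difference between aspirin and control (log2) for each gene with its 95% confidence interval over 3 arrays per group, and the difference within each replicate pair as open symbols. GCLC, TXNRD1 and SRXN1 lie above 0 at 1.06, 0.79 and 0.75, GPX2 lies lowest at -1.23 with pair 1 at -2.39, and 4 genes lie between -0.46 and -0.33 without passing the test.

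The scores of GCLC, GSR, NQO1 and OSGIN1 are not single steps of 1 in 770, so their signals combine several probes, and which probe carries a change cannot be seen. The scores of GCLM, TXNRD1, TXN, SRXN1, GPX2 and PRDX1 were 1 on all 6 arrays. At that score the check cannot tell 1 probe from several, so the same limit may hold for them. Of the pathway genes named below, the scores of MAFG, KEAP1, TXNRD2, SELENOT, SOD2, ABCC3 and TRIM16 are not single steps either. Under the 21 other settings tried, the 9 tested genes kept their direction in every one. Chip 1 alone and the setting without replicate 2 use the same arrays, so that result is counted in both. GCLC passed in 20 of the 21, TXNRD1 and SRXN1 in 18 each, and GPX2 in 15. TXN passed in 8, PRDX1 in 4, GCLM in 1, and GSR and NQO1 in 0, where their lowest adjusted p was 0.171 and 0.0618 by limma.

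**Figure D3:**
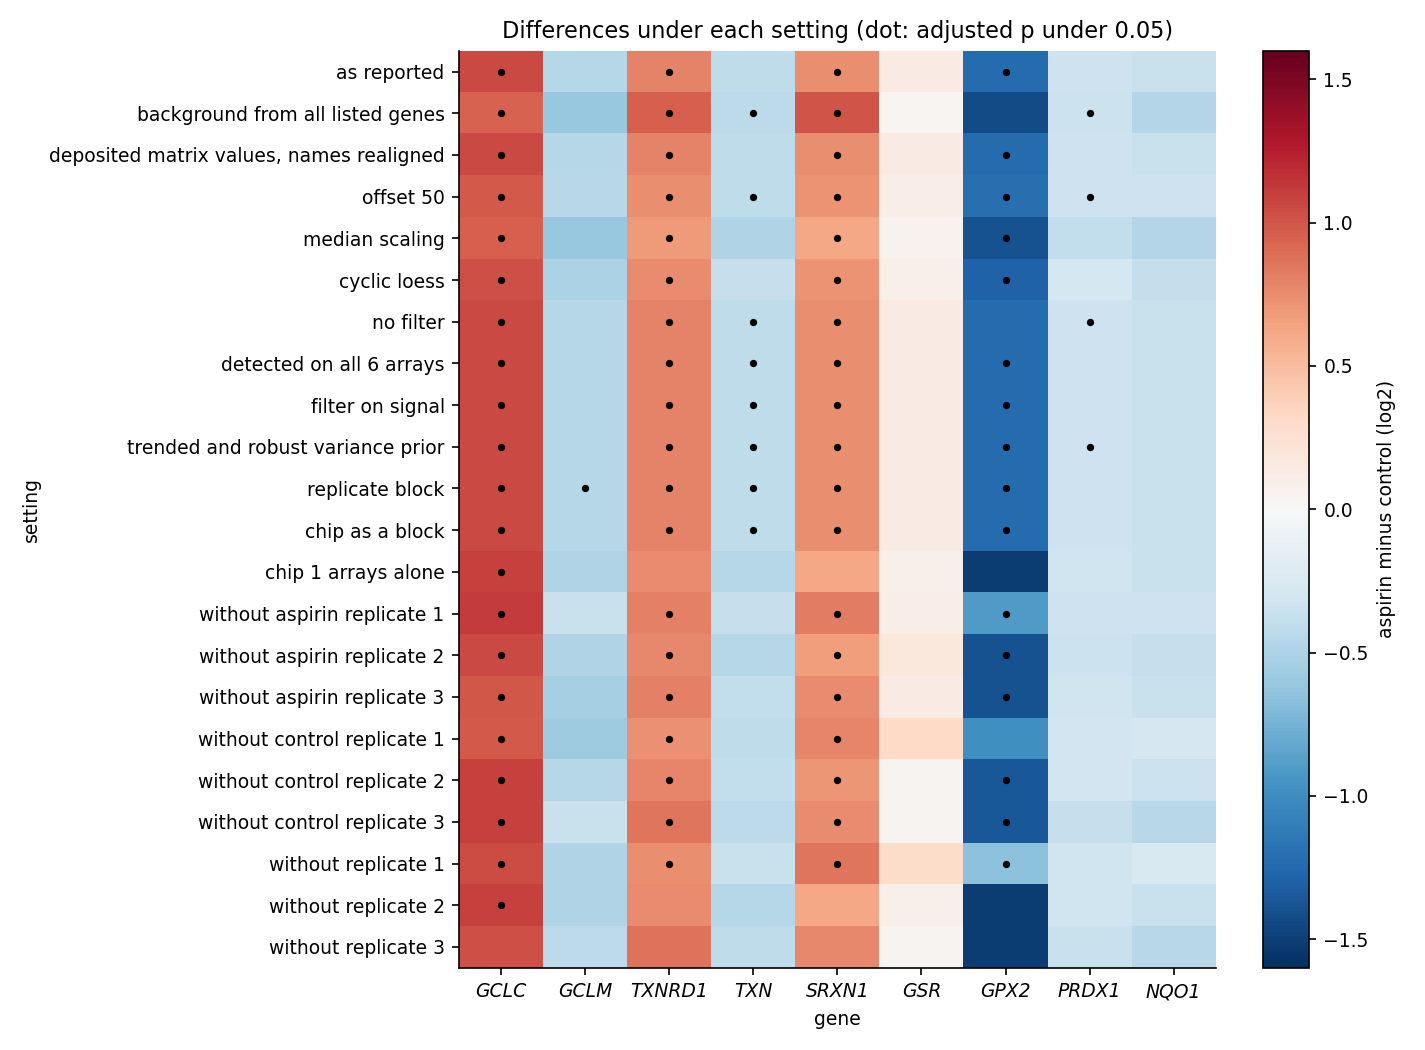
Difference between aspirin and control (log2, colour) for the 9 tested genes under the reported setting and the 21 others, with a dot where the adjusted p was under 0.05. Colours keep their side of 0 in each column. The dots of GPX2 drop out in 6 settings and those of TXN appear in 8. Chip 1 alone and the setting without replicate 2 are the same arrays shown in separate rows.

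The other genes of these pathways were taken from 7 lists with 121 genes, of which 120 were in the table and 99 were tested. Of these 99, 9 rose, 19 fell and 71 did not pass, with a median difference of -0.16, beside 0.02 over all genes tested. Over all genes tested 10.5% passed upward and 9.73% downward, and the counts of each list below are to be read beside these shares. Without aspirin replicate 2, control replicate 2 or control replicate 3 only 4 rose, and without aspirin replicate 3 only 5. Without aspirin replicate 2, aspirin replicate 3 or control replicate 3 only 11 fell. With the replicate block 12 rose and 28 fell, beside 17.4% upward and 15.7% downward over all genes tested.

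Among 7 regulators of NRF2 tested, 2 rose, 0 fell and 5 did not pass (median 0.29). SQSTM1, the autophagy adaptor p62, which binds KEAP1, rose by 0.92 ± 0.15 (adjusted p = 0.00462), and MAFG, a small MAF partner of NRF2, by 0.81 ± 0.18 (adjusted p = 0.0148). NFE2L2 itself averaged 10.55 ± 0.26 with aspirin and 10.81 ± 0.17 in controls (SD, n = 3 each), a difference of -0.26 ± 0.17 that did not pass (adjusted p = 0.336). KEAP1 differed by 0.29 ± 0.22 (adjusted p = 0.400), RBX1, a subunit of its ubiquitin ligase, by -0.54 ± 0.17 (adjusted p = 0.0596), and the related factor NFE2L1 by -0.38 ± 0.15 (adjusted p = 0.104). With the replicate block RBX1 (adjusted p = 0.0200) and NFE2L1 (adjusted p = 0.0449) were called lower. The call of MAFG was lost without aspirin replicate 2 (adjusted p = 0.0535) or control replicate 2 (adjusted p = 0.0514), and its rise was 0.10 with the background taken from all listed genes.

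Of 10 genes of glutathione synthesis, salvage and cystine supply, 2 rose, 2 fell and 6 did not pass (median 0.25). With the replicate block 5 were called higher and 3 lower, CTH (adjusted p = 0.00426), CBS (0.0411) and GGCT (0.0480) being added as higher and SLC3A2 (0.0498) as lower; these 4 were named after their values were seen. CHAC1, which degrades glutathione and is induced in amino acid stress, rose by 1.43 ± 0.17 (adjusted p = 0.00121). Its signal exceeded background on 3 of 3 aspirin arrays but on 1 of 3 control arrays, so it entered the test through the aspirin group and the size of its difference is uncertain. Its slower relative CHAC2 (-0.74 ± 0.19, adjusted p = 0.0285) and the leucine aminopeptidase LAP3 (-0.91 ± 0.16, adjusted p = 0.00697) fell. OPLAH, which returns oxoproline to glutamate, rose by 0.42 ± 0.13 (adjusted p = 0.0497). SLC7A11, the cystine transporter, was above background on no array. OPLAH lost its call without any 1 of the 6 arrays (adjusted p up to 0.161) and CHAC2 without aspirin replicate 1 or 2 or control replicate 1 or 3 (up to 0.0918). With the background from all listed genes CHAC1 differed by 0.09 and CHAC2 by -0.05. With median scaling in place of quantile normalization OPLAH differed by 0.31 and did not pass (adjusted p = 0.208). It did not pass with cyclic loess normalization either (adjusted p = 0.0718).

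Glutathione peroxidases, transferases and glutaredoxins included 25 tested genes; 0 rose, 4 fell and 21 missed the threshold (median -0.09). GSTA4, a transferase for lipid aldehydes, averaged 6.30 ± 0.14 with aspirin and 8.25 ± 0.69 in controls (SD, n = 3 each), a difference of -1.96 ± 0.30 (adjusted p = 0.00379). The glutaredoxin GLRX (-1.20 ± 0.22, adjusted p = 0.00778), the secreted peroxidase GPX3 (-1.05 ± 0.22, adjusted p = 0.0115) and the microsomal transferase MGST2 (-0.75 ± 0.22, adjusted p = 0.0406) were the others that fell. MGST2 lost its call without any 1 of the 6 arrays (adjusted p up to 0.0994) and GPX3 without aspirin replicate 3 (adjusted p = 0.0506), and with the background from all listed genes none of the 4 passed (GSTA4 -0.65, GLRX -0.68, GPX3 -1.08, MGST2 -1.02).

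Of 20 other thioredoxin, peroxiredoxin, sestrin and methionine sulfoxide reductase genes, 2 rose, 3 fell and 15 did not pass (median -0.31). With the replicate block 6 were called lower, SESN3 (adjusted p = 0.00289), TXNRD2 (0.0190) and SESN1 (0.0389) being added, named after their values were seen. MSRB1, a selenium-containing methionine sulfoxide reductase listed as SEPX1, fell (-1.30 ± 0.17, adjusted p = 0.00174) and passed under all 21 other settings. MSRA, which reduces the other sulfoxide form (-0.65 ± 0.18, adjusted p = 0.0383), and the selenoprotein SELENOT, listed as SELT (-0.57 ± 0.16, adjusted p = 0.0402), fell. SESN2, a stress-induced sestrin above background on 2 of 3 control arrays, rose by 1.20 ± 0.23 (adjusted p = 0.00838). TXNIP, the thioredoxin inhibitor, averaged 12.26 ± 0.26 with aspirin and 11.59 ± 0.73 in controls (SD, n = 3 each) and did not pass (0.68 ± 0.33, adjusted p = 0.189). The TXNIP difference was 1.62, 0.31 and 0.09 in replicate pairs 1 to 3, and 0.26 without control replicate 1. SELENOT lost its call without any 1 of the 6 arrays (adjusted p up to 0.136) and MSRA without any 1 but aspirin replicate 1 (up to 0.109). With the background from all listed genes SESN2 differed by 0.10, MSRA by -0.08 and SELENOT by -0.10, with none of the 3 calls kept. With median scaling SELENOT also lost its call (-0.62, adjusted p = 0.0554).

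All 3 tested genes that remove superoxide and hydrogen peroxide had negative differences, and 1 of them fell. SOD1, the cytosolic superoxide dismutase, fell (-0.61 ± 0.14, adjusted p = 0.0165), while the mitochondrial SOD2 (-0.58 ± 0.18, adjusted p = 0.0521) and catalase, CAT (-0.49 ± 0.16, adjusted p = 0.0561), did not pass. With the replicate block SOD2 (adjusted p = 0.0411) and CAT (adjusted p = 0.0351) were called lower. The call of SOD1 was lost without aspirin replicate 2 (adjusted p = 0.0549) or control replicate 3 (adjusted p = 0.0629).

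Among 26 other NRF2 targets tested, 1 rose, 8 fell and 17 did not pass (median -0.13). AKR1B10, an aldo-keto reductase of retinal and lipid aldehydes, averaged 5.47 ± 0.11 with aspirin and 7.76 ± 0.27 in controls (SD, n = 3 each) and fell (-2.29 ± 0.17, adjusted p = 0.000233). The carbonyl reductase CBR3 (-1.04 ± 0.14, adjusted p = 0.00229), the retinol-oxidizing ADH7 (-2.02 ± 0.42, adjusted p = 0.0119) and the glucuronosyltransferase UGT1A6 (-0.69 ± 0.13, adjusted p = 0.00874) fell too. UGT1A6 shares exons with its neighbours in the UGT1A cluster, so its value is uncertain, and ADH7 exceeded background on 1 of 3 aspirin arrays but 3 of 3 control arrays, so it entered the test through the control group and the size of its difference is uncertain. ADH7 lost its call without aspirin replicate 3 (adjusted p = 0.0516). HMOX1, heme oxygenase 1, differed by 0.54 ± 0.28 and did not pass (adjusted p = 0.218), but passed at 0.90 without aspirin replicate 1 (adjusted p = 0.00716). With the background from all listed genes the differences were -0.41 for AKR1B10 and -0.55 for CBR3, which still passed, and -0.25 for ADH7, which did not (adjusted p = 0.237).

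Among 8 tested genes that supply NADPH, 2 rose, 1 fell and 5 did not pass (median -0.05). The transketolase TKT (0.51 ± 0.13, adjusted p = 0.0256) and the lactonase PGLS (0.51 ± 0.15, adjusted p = 0.0479), both of the pentose phosphate pathway, rose, and the cytosolic isocitrate dehydrogenase IDH1 (-0.66 ± 0.20, adjusted p = 0.0479) fell. PGD, the phosphogluconate dehydrogenase of that pathway, differed by 0.33 ± 0.13 and did not pass (adjusted p = 0.113). TKT lost its call without aspirin replicate 2 or 3 or control replicate 2 or 3 (adjusted p up to 0.0829), PGLS without any 1 array but control replicate 1 (up to 0.145), and IDH1 without any 1 but control replicate 2 (up to 0.144). PGLS and IDH1 also missed the threshold with the background from all listed genes (adjusted p = 0.0590 and 0.113). With median scaling TKT (0.33, adjusted p = 0.190) and PGLS (0.36, adjusted p = 0.157) did not pass. PGLS did not pass with cyclic loess either (adjusted p = 0.0629).

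**Figure D4:**
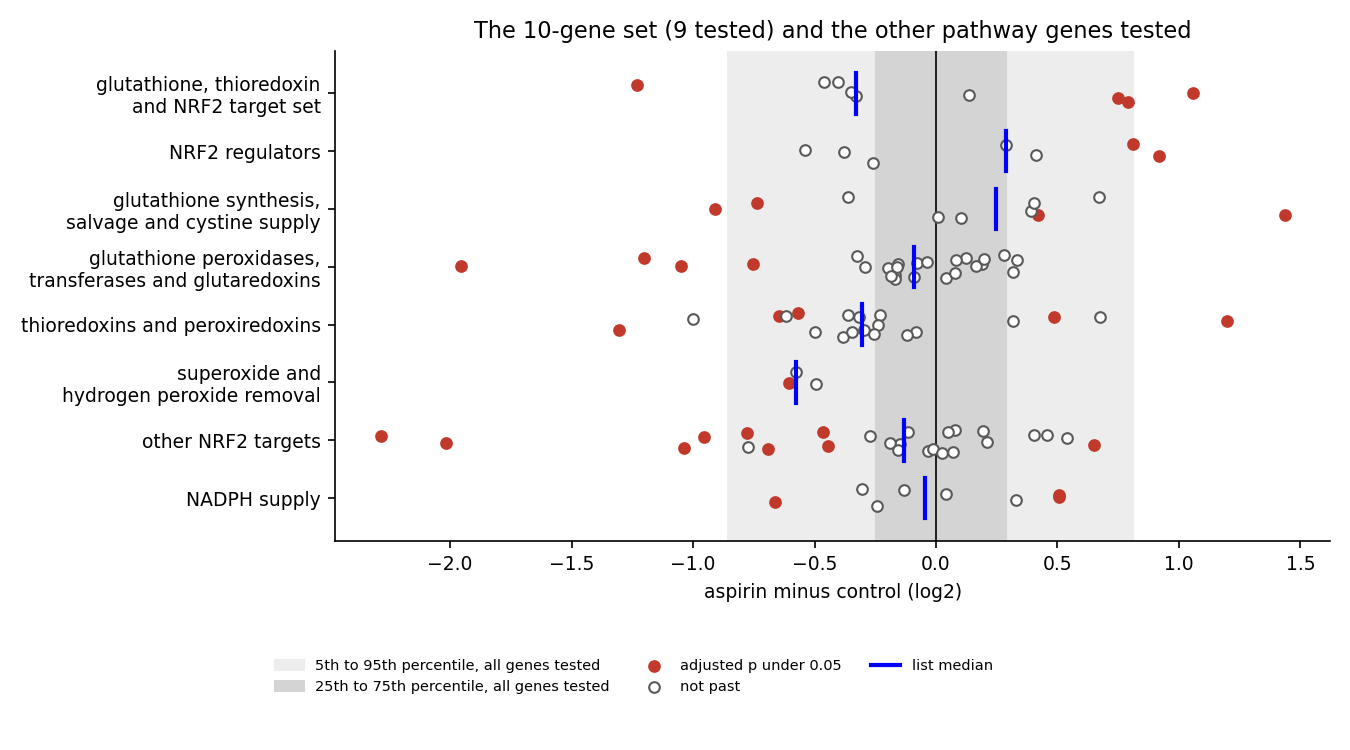
Difference between aspirin and control (log2) of each tested gene of the 10-gene set and of 7 lists of related genes, filled where the adjusted p was under 0.05, with list medians in blue and the spread of all genes tested shaded. GPX2 and the rising GCLC, TXNRD1 and SRXN1 lie on opposite sides of 0, and AKR1B10, at -2.29, is the lowest point.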

How the data were processed

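Per the file headers, the table deposited by the authors holds 1 signal intensity and 1 detection value for each gene symbol and array, not normalized between arrays, and the submitters' processing notes name GenomeStudio 1.9.0. In the sources used here the build and the annotation of the probes are not given. Detection values are headed as p-values but have a mean of 0.994 in the 1000 brightest genes and of 0.170 in the 1000 dimmest, so each deposited value was taken as a score equal to 1 minus p. The deposited matrix of intensity values equals the signal minus 1 constant per array (95.4 to 115.7; column medians 6.4, 10.6 and 7.5 for aspirin arrays 1 to 3 and 7.6, 11.4 and 7.8 for control arrays 1 to 3). In it 15338 of 34687 rows carry their own gene's value, 7171 that of the next gene and 12173 that of the gene after, within 0.3 units, so it served only as an alternative, with names realigned.

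Background was corrected by limma's normal-exponential model (limma 3.58.1, R 4.3.3), with its mean and SD inferred per array from the 27647 genes (79.7%) with scores on whole steps of 1 in 770; an offset of 16, quantile normalization and log2 followed. Leaving out 1 gene with a signal of 0, 34693 remained, and the 15128 with a score above 0.95 on at least 3 arrays were tested with lmFit and eBayes without covariates. Above background means a score over 0.95 or a signal over the background mean plus 3 SD. The fit was tested on simulated data in which the noise of each array was independent, so the test does not cover correlation between same-numbered arrays. Alternatives changed the background estimate, offset, normalization, filter, variance prior, blocks or arrays included. Deviations from the group means correlated between same-numbered arrays (r = 0.507, 0.515 and 0.319 in pairs 1 to 3). The labels state no pairing, and the reported fit uses none. On the evidence of this correlation, differences are also given by replicate pair, and a fit with the replicate block was added. Both arrays numbered 2 were on chip 2, so for them a shared replicate cannot be told apart from a shared chip.

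The members and gene lists were chosen with earlier results of these data known. Named are all 10 genes, the 4 genes of each list with the smallest p-values, and NFE2L2, KEAP1, HMOX1, SLC7A11 and TXNIP; 1 further gene of the rule is not reported here. Of the 121 list genes 4 were matched through a RefSeq synonym and LUCAT1 was not matched. Figures were drawn with matplotlib 3.10.9.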

Additional observations from a re-analysis of the deposited data

How the results depend on the processing

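Of the 10 genes and the pathway genes named, none that passed the threshold changed sign in any of the other settings in which it was tested (20 or 21 for those tested in the reported fit); the cell type markers were not refitted. The number of genes past the threshold, 3060 (51.9% of them higher with aspirin), was 5012 with the replicate block, among which were all 3060, and 860 on chip 1 alone, which are the same arrays as those without replicate 2; leaving out arrays gave 420 to 3131, with 2028 without aspirin replicate 2, 1775 without aspirin replicate 3 and 1862 without control replicate 3. Median scaling put the higher share at 40.3%. Of the 10 genes, the 3 called higher were 1 on chip 1 alone and 0 to 3 with arrays left out, 0 being without both replicate 3 arrays. The 1 called lower was 3 with an offset of 50, with a trended and robust variance prior or with the replicate block, 2 with the background from all listed genes, with no filter, with detection on all 6 arrays, with the filter on signal or with the chip as a block, 0 on chip 1 alone, and 0 to 1 with arrays left out. With the background from all listed genes and with no filter these 2 were TXN and PRDX1. GPX2 did not pass in either (adjusted p = 0.107 and 0.0789 by limma). Besides the calls given with it in the report, the replicate block changed that of AKR1C3, which passed as lower (adjusted p = 0.0456), and no other call of a pathway gene. Of the pathway genes, 9 higher became 5 with median scaling, 3 on chip 1 alone and 1 to 9 with arrays left out; 19 lower became 9 with the background from all listed genes, 5 on chip 1 alone and 4 to 17 with arrays left out. The cause of these shifts was not tested, except that fits on fewer arrays rest on fewer samples. The background from all listed genes has a mean of 132 to 175 units, and the differences of CHAC1, SESN2 and AKR1B10 were 0.09, 0.10 and -0.41 with it. The deposited signal was 105.5 to 161.9 units for CHAC1 and 126.7 to 174.2 for SESN2, near or below that background. For genes at such signals this setting cannot show whether a difference is present, because little signal is left after correction. Signal over background limits OSGIN1, SLC7A11 and the other genes near 100 units.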

Other observations

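A further 6 pathway genes passed the threshold and were named after their values were seen. The drug exporter ABCC3 rose by 0.65 ± 0.14 (adjusted p = 0.0150 by limma) and SELENOS, a selenoprotein of the endoplasmic reticulum listed as SELS, by 0.48 ± 0.15 (adjusted p = 0.0487). The aldehyde dehydrogenase ALDH3A1 fell by 0.96 ± 0.23 on the log2 scale (adjusted p = 0.0204), the carbonyl reductase CBR1 by 0.78 ± 0.19 (adjusted p = 0.0215), UGDH, which makes the sugar donor for glucuronidation, by 0.47 ± 0.14 (adjusted p = 0.0442) and TRIM16 by 0.45 ± 0.13 (adjusted p = 0.0485). TRIM16 lost its call without any 1 of the 6 arrays (adjusted p up to 0.158), SELENOS without any 1 but control replicate 2 (up to 0.137), UGDH without any 1 but control replicate 1 (up to 0.147), ALDH3A1 without any 1 aspirin array or control replicate 2 (up to 0.0630), CBR1 without aspirin replicate 2 (adjusted p = 0.0672) and ABCC3 without control replicate 2 (adjusted p = 0.0508) or 3 (adjusted p = 0.0550). With the background from all listed genes the calls of ALDH3A1 (-0.12, adjusted p = 0.129), TRIM16 (-0.03, adjusted p = 0.133) and CBR1 (-0.50, adjusted p = 0.0698) were lost, and ABCC3 passed at 0.28. With median scaling those of SELENOS (0.36, adjusted p = 0.248) and TRIM16 (-0.47, adjusted p = 0.0682) were lost. SELENOS also did not pass with cyclic loess (adjusted p = 0.0758).

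GPX1, the most widely expressed glutathione peroxidase, MTHFD2, GSTZ1, AKR1C2 and NFE2L3 had signals over the background mean plus 3 SD on all 6 arrays but detection scores above 0.95 on at most 2, and were not tested. Their scores are not single steps of 1 in 770, so their signals combine several probes, and which probe carries a change cannot be seen. In the fit with no filter GPX1 averaged 9.69 ± 0.09 with aspirin and 10.19 ± 0.28 in controls (SD, n = 3 each), a difference of -0.49 ± 0.15 (adjusted p = 0.113 by limma). MTHFD2, a mitochondrial folate enzyme, averaged 10.05 ± 0.06 with aspirin and 9.34 ± 0.19 in controls (SD, n = 3 each) and passed as higher there (0.71 ± 0.11, adjusted p = 0.0133 by limma). GSTZ1 differed by -0.58 ± 0.17, AKR1C2 by -0.45 ± 0.29 and NFE2L3 by -0.17 ± 0.27, none past the threshold.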
